A study of Mus musculus with 24 samples.

Results

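Klf2, Klf4, Klf5 and Klf9 are 4 genes of the Krüppel-like factor family, and the data are the listed peaks around them in mouse embryonic stem cells in mitosis and in asynchronous culture. A peak was taken when its midpoint lay inside the gene, within 80 kb of it for Klf4, or within 20 kb of it for Klf2, Klf5 and Klf9. The 4 windows held 264 of the 246925 peaks in 16 lists (81 by Klf4, 70 by Klf9, 68 by Klf2 and 45 by Klf5), around 4 of 21896 annotated protein-coding genes. Of the 264 peaks, 71 were from Klf4 antibody libraries, 18 from Oct4, 18 from Sox2 and 157 from libraries of acetylated lysine 27 of histone H3 (H3K27ac), a mark of active promoters and enhancers.

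The cells were V6.5, an established embryonic stem cell line labelled C57BL/6-129 and one for which the labels name no transgene or knockout. The mitotic cells had been given nocodazole, a drug that blocks the spindle, for 7 h (stated as 100 ug/ml) and were then shaken off the plate, and the other cells were labelled asynchronous. Both had been grown on irradiated feeder cells with 1000 U/ml of LIF and 15% serum, and later on gelatin with PD98059, labelled a MEK1 inhibitor, and Chir99021, labelled a Gsk3 inhibitor. Chromatin fixed with 1% formaldehyde for 10 min was precipitated (ChIP-seq) with antibodies to Klf4 (3 mitotic and 3 asynchronous libraries), Oct4 (2 mitotic and 1 asynchronous), Sox2 (2 mitotic and 1 asynchronous) and H3K27ac (2 mitotic and 2 asynchronous). The labels do not say that libraries of a group came from separate cultures, so p-values measure only the spread between these libraries.

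Krüppel-like factors bind GC-rich DNA and GT-rich boxes through 3 zinc fingers at the end of the protein, and the related Sp factors recognise similar sites. Klf2, Klf4 and Klf5 act in part redundantly in mouse embryonic stem cells to hold the naive pluripotent state, where LIF acting through Stat3 induces Klf4. Klf9, first known as basic transcription element binding protein, is widely expressed and responds to steroid hormones in other tissues. Oct4 (encoded by Pou5f1) and Sox2 are partner factors of the pluripotency network and often bind joined sites in enhancers. The Klf4 antibody libraries therefore report binding of a family member at the genes of its own family.

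The promoter bases are shown because the Klf4 antibody peaks at these promoters lacked Oct4 and Sox2 peaks. Some distal Klf4 antibody peaks overlapped peaks of both, and others were of Klf4 alone. The printed bases are the 250 before the gene start, 5′ to 3′ in the direction of transcription. Their source was RefSeq (GRCm38.p6, the patch release of mm10), which had entries for 3 of the 4 genes. Capitals mark GC boxes (GGGCGG on either strand), a motif added after the sequences were seen. Klf2, chr8:72318812-72319061, plus strand, had 2 of them, and Klf4, chr4:55532476-55532725, minus strand, had 4, of which a pair shared a base. Klf9, chr19:23140976-23141225, plus strand, had 0.
Klf2: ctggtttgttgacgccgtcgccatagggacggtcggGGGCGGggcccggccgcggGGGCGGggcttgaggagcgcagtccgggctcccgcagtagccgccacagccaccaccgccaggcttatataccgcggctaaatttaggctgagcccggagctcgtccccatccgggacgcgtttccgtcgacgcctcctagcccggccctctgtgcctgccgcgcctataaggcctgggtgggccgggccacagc
Klf4: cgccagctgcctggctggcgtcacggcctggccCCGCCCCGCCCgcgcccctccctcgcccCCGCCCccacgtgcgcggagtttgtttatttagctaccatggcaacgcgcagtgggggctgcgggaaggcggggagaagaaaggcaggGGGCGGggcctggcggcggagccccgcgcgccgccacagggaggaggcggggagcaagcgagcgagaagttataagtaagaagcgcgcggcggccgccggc
Klf9: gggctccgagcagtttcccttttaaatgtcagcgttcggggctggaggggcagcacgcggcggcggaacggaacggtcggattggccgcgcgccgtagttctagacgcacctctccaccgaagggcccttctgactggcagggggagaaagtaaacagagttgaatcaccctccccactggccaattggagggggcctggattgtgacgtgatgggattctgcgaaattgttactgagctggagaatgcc
Of 32851 promoters of this length, 32.7% held a GC box. The Klf motif GGGNGTGG, the Sox motif CATTGT and the octamer part ATGCAAA, each searched on both strands, were not among these letters in any of the 3, against 15.9%, 10.7% and 4.12% of all promoters. The bases G and C made up 74% of the Klf4 promoter, 71.2% of the Klf2 promoter and 59.6% of the Klf9 promoter, against a median of 52.4%. A Klf4 antibody peak overlapped the printed Klf4 promoter in 0 of 3 mitotic and 3 of 3 asynchronous libraries. The same counts were 1 of 3 mitotic and 3 of 3 asynchronous libraries for Klf9, and 0 of 3 mitotic and 1 of 3 asynchronous libraries for Klf2. All 3 promoters overlapped H3K27ac peaks of both mitotic and both asynchronous libraries, and no Oct4 or Sox2 peak. The overlap was partial at the Klf4 promoter in mitosis. H3K27ac peaks there stopped at chr4:55532512 in mitotic 1 and 55532529 in mitotic 2, and resumed at 55532708 and 55532714. In asynchronous 2 the Klf2 promoter spanned a gap between peaks, from chr8:72318880 to 72318953.

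Each list held the peaks of 1 library, whose read depth is unknown, and its length was the only measure of yield. Klf4 lists held 5754, 3795 and 8438 peaks in mitosis, against 10575, 21307 and 16455 in asynchronous cells. Oct4 lists held 1246 and 5282 peaks in mitosis and 3347 in asynchronous cells, and Sox2 lists 4537 and 1940 in mitosis and 2986 in asynchronous cells. H3K27ac lists held 36526 and 30771 peaks in mitosis, against 47475 and 46491 in asynchronous cells. A fold is the authors' enrichment of a peak over its local background, so each is given with its percentile among the folds of its own list and was not tested between lists. By project code in the labels, mitotic and asynchronous H3K27ac libraries came from separate projects, so project and state cannot be told apart there. Among Klf4 libraries, mitotic 3 and asynchronous 3 shared a project.

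One library stood apart over the gene Klf4. The 5 highest folds in H3K27ac mitotic 2 lay over Sox2 (93.7), Myc (92.8 for both peaks), Klf4 (91.4) and Pou5f1 (67.4), the genes of the classic reprogramming factor set. The next fold in that list was 57.1, over Ppp2r5c. Over the Klf4 gene, the highest fold was 6.61 in H3K27ac mitotic 1, 29.3 in asynchronous 1 and 21.8 in asynchronous 2. All 4 H3K27ac libraries had peaks over Pou5f1 and Sox2, genes active in these cells. Over Myc, H3K27ac mitotic 1 listed no peak, and the asynchronous libraries had highest folds of 6.27 and 4.36. The 3 blocks of H3K27ac mitotic 2 over Klf4 had folds of 38.6, 91.4 and 25.9. Klf4 mitotic 1, which like Klf4 mitotic 2 shared the project of this library, had a peak of 1317 bp inside Klf4 (chr4:55529644-55530960, fold 6.26, percentile 85.0), the 5th widest of its 5754 peaks, whose median width was 299 bp. It had peaks over Sox2 (10.1, percentile 98.9) and Myc (8.18, percentile 96.4) as well, and over Pou5f1 one of ordinary rank (4.76, percentile 44.7; 6.29 and percentile 63.4 in asynchronous 3). By contrast, Klf4 mitotic 2 and 3 listed none over Klf4, Sox2, Myc or Pou5f1. The part of this pattern in the results at Klf4 was not tested, and counts and coverage of H3K27ac are given with and without mitotic 2. Klf2, Klf5 and Klf9 had no such blocks: the highest H3K27ac mitotic 2 folds over those genes were 5.45, 11.0 and 20.5, beside 7.27, 10.8 and 17.2 in mitotic 1.

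**Figure D1:**
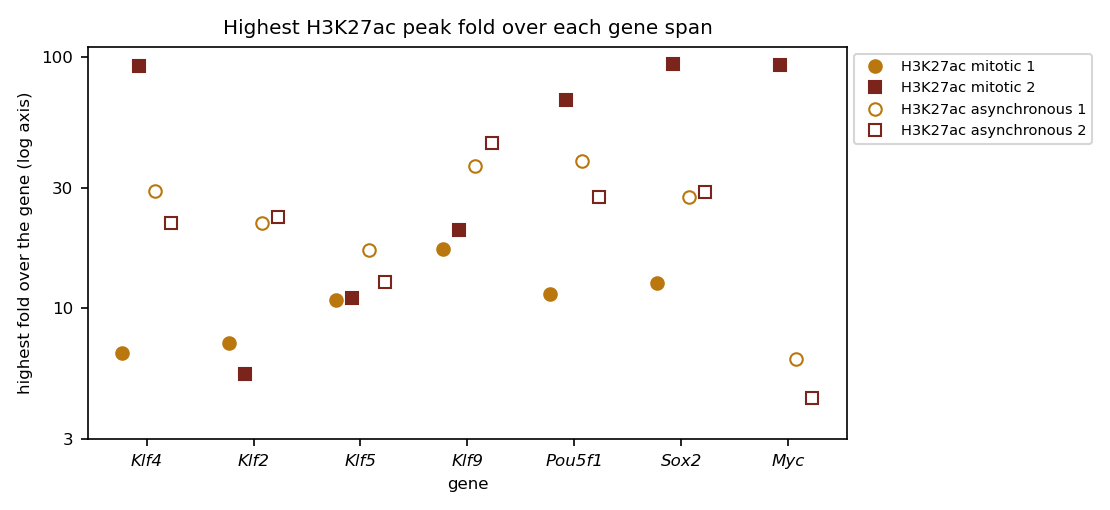
Highest H3K27ac fold (vertical, log axis) among peaks overlapping each gene (horizontal), 1 point a library, with mitotic libraries filled and asynchronous ones open. H3K27ac mitotic 2 lies at 91.4 over Klf4, 67.4 over Pou5f1, 93.7 over Sox2 and 92.8 over Myc, above the other 3 libraries, and beside mitotic 1 at Klf2, Klf5 and Klf9; mitotic 1 has no Myc point because it lists no peak there.

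The Klf4 antibody lists held 7, 4 and 10 peaks in the windows in mitosis, against 13, 19 and 18 in asynchronous cells. The groups did not overlap, with means of 7.0 ± 3.0 in mitosis and 16.7 ± 3.2 in asynchronous cells (SD, n = 3 each). The difference of −9.67 had an exact permutation p of 0.1 (two-sided), the smallest that 3 against 3 libraries allow. Scaled to the length of the lists the groups overlapped, with 12.2, 10.5 and 11.9 peaks per 10000 listed in mitosis and 12.3, 8.92 and 10.9 in asynchronous cells (difference 0.80, exact permutation p = 0.7). Within the shared project the numbers were 10 peaks in mitosis and 18 in asynchronous cells.

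By gene, the Klf9 window held 2, 0 and 4 Klf4 antibody peaks in mitosis and 5, 5 and 7 in asynchronous cells. The Klf5 window held 1, 0 and 1 in mitosis and 2, 3 and 2 in asynchronous cells. The Klf4 window held 2, 3 and 3 in mitosis and 4, 7 and 5 in asynchronous cells, and in the Klf2 window the numbers were 2, 1 and 2 in mitosis and 2, 4 and 4 in asynchronous cells. Klf4 mitotic 2, the shortest Klf4 list, had its 4 peaks at Klf2 and Klf4 alone. Oct4 lists held 6 and 7 peaks in the windows in mitosis and 5 in asynchronous cells, and Sox2 lists 7 and 5 in mitosis and 6 in asynchronous cells.

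**Figure D2:**
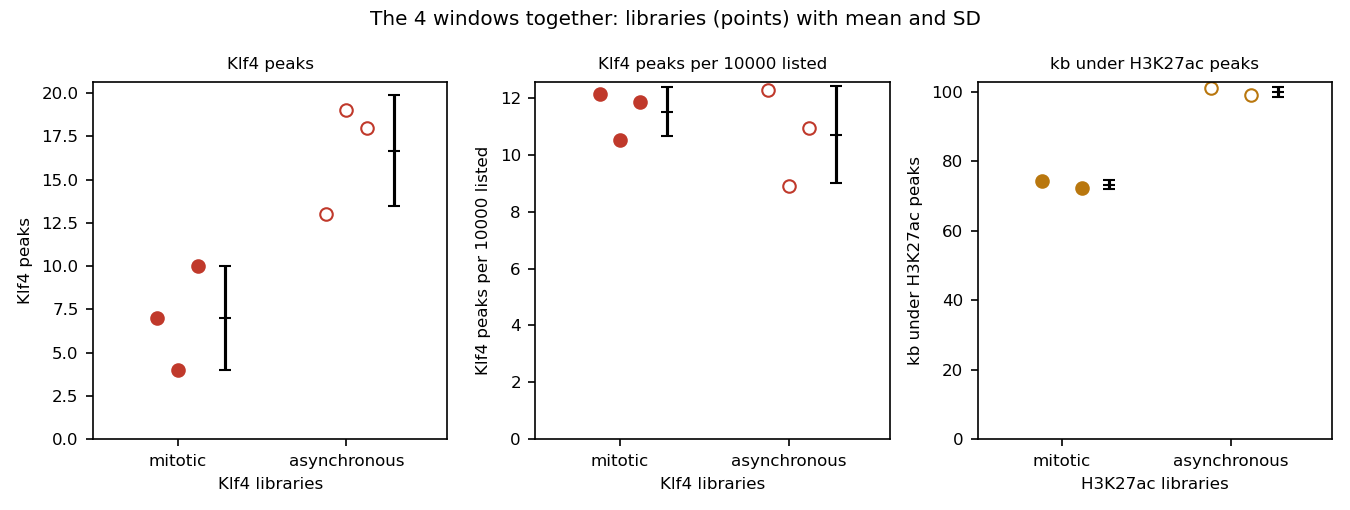
Left and middle, number of Klf4 antibody peaks in the 4 windows and the same per 10000 listed peaks; right, kilobases under H3K27ac peaks. Points are libraries, with mitotic ones filled and left of the open asynchronous ones, and bars give mean and SD. The states separate in number (7.0 in mitosis and 16.7 in asynchronous cells on average) and overlap once scaled to list length.

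Peaks of 1 antibody that overlapped by 1 bp or more formed a region, and a region was kept if at least 2 mitotic and at least 2 asynchronous libraries (1 for Oct4 and Sox2) had it. It was lost if no mitotic library had it, and intermediate if 1 did. For Klf4, 6 of 14 asynchronous regions in the windows were kept (42.9%), against 26.9% of 13982 genome-wide. There were 2 lost regions, against 44.0% genome-wide, and 6 intermediate ones, against 29.1%. These counts rest on single libraries. The kept count was 3 of 14 without Klf4 mitotic 1 and 1 of 14 without Klf4 mitotic 3, beside 13.7% and 13.0% genome-wide. The lost count was 3 of 14 without Klf4 mitotic 1 or without mitotic 2, 6 of 14 without Klf4 mitotic 3, and 6 of 11 at a −log10 q of at least 5. The genome-wide share of lost regions was not computed in these settings, so these lost counts have no background. With lists of equal length the kept count was 3 of 7, under the genome-wide 47.7%. Regions of at least 2 mitotic and no asynchronous Klf4 libraries were absent from the windows, and made up 2.33% of regions in at least 2 mitotic libraries genome-wide.

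For Oct4, 3 of 5 regions were kept (background 24.6%) and 1 was lost (background 36.2%). A further 2 regions of both mitotic libraries had no peak in the single asynchronous list, a class that made up 26.4% of regions in both mitotic libraries genome-wide. For Sox2, 5 of 6 regions were kept (background 40.9%) and 1 was lost (background 28.4%). None was mitotic-only, against 25.7% of regions in both mitotic Sox2 libraries genome-wide. For H3K27ac, 16 of 27 asynchronous regions were kept (background 46.1%) and 6 were lost (background 39.4%). A further 1 was mitotic-only, a class that made up 26.7% of regions in both mitotic H3K27ac libraries genome-wide. With 1 H3K27ac library left out, the 1 remaining library of that state sufficed, so the next counts follow a looser rule. Without H3K27ac mitotic 2, 21 of 29 were kept (background 55.7%), 8 were lost and 3 were mitotic-only. Kept counts were 19 of 29 without mitotic 1 (background 50.9%), 16 of 35 without asynchronous 1 (37.0%) and 16 of 31 without asynchronous 2 (35.8%). Lost counts were 10 of 29, 14 of 35 and 11 of 31 in that order. Genome-wide shares of lost and mitotic-only regions were not computed in these settings. Counts of this size describe the loci and were not tested.

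Seen a library at a time, the mitotic Klf4 lists recovered 5, 4 and 10 of the 14 regions, or 35.7%, 28.6% and 71.4%, beside 30.3%, 18.9% and 44.2% over the genome. Each Sox2 mitotic list recovered 5 of 6 (83.3%), beside 69.1% and 43.4% over the genome. Oct4 mitotic 1, the shortest list of all 16, recovered 3 of 5 (60%, genome 25.7%), and Oct4 mitotic 2 recovered 4 of 5 (80%, genome 62.7%). H3K27ac mitotic lists recovered 20 and 17 of 27 (74.1% and 63.0%), beside 55.7% and 51.0%. All 9 mitotic lists thus had a higher share in the windows than over the genome, which was not tested, since the regions are few and share loci.

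Merging Klf4, Oct4 and Sox2 peaks of the 12 factor lists gave 30 elements in the windows: 10 by Klf9, 9 by Klf4, 8 by Klf2 and 3 by Klf5. Peaks of all 3 factors were present at 7 of them (3 by Klf4, 2 by Klf2 and 1 each by Klf5 and Klf9), against 4.59% of 35022 elements genome-wide. Klf4 alone was listed at 20 (background 72.8%), Oct4 alone at 2 (7.68%) and Sox2 alone at 1 (5.22%), and 13 of the 30 were listed in a single library (45.0%). Of the 14 elements in the asynchronous Klf4 set, 5 had both other factors, against 6.91% genome-wide. All 30 overlapped H3K27ac peaks of both asynchronous libraries by at least 1 bp, against 48.7% genome-wide. Of them, 27 overlapped peaks of both mitotic libraries, against 30.7%. Without H3K27ac mitotic 2, 28 overlapped a mitotic peak, against 36.4%. Klf2, Klf4, Klf5 or Klf9 was the nearest protein-coding gene for 28 of the 30, and Eps15l1 for the other two.

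**Figure D3:**
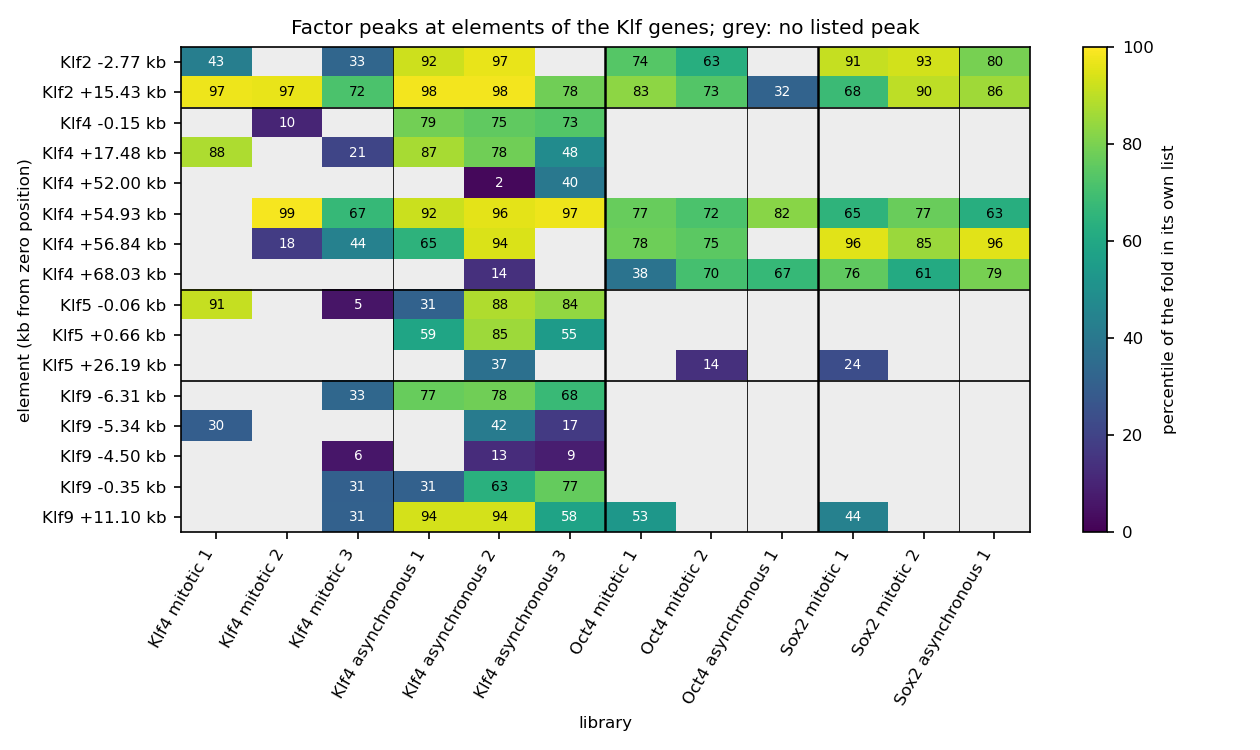
Elements with peaks of all 3 factors or of at least 2 asynchronous Klf4 libraries (rows, by gene and distance in kb) in the 12 factor libraries (columns, mitotic left of asynchronous for each antibody). Numbers and colour give the percentile of the fold in its own list, and grey is no listed peak; the Klf2 row at +15.43 kb is filled throughout, and among Klf4 rows Oct4 and Sox2 have peaks at +54.93, +56.84 and +68.03 kb and none at the promoter, +17.48 or +52.00 kb.

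Klf2, whose protein MEK inhibition stabilises in mouse stem cells, had the most complete element of the 4 loci. It lay 15.4 kb past the gene start (chr8:72334162-72334826), 12.5 kb from the gene's end and 6.16 kb from Eps15l1, a gene of endocytosis, which is the nearer. All 12 factor libraries listed it. Klf4 folds were 8.66, 7.38 and 5.73 in mitosis (percentiles 97.5, 96.6 and 71.6), against 12.8, 8.29 and 7.92 in asynchronous cells (98.2, 98.2 and 78.5). Oct4 folds were 7.20 and 6.94 in mitosis and 4.77 in asynchronous cells, at percentiles 82.9, 73.3 and 32.0. Sox2 folds were 6.72 and 8.60 in mitosis and 8.62 in asynchronous cells (68.1, 90.0 and 85.8). Its rank in the lists overlapped between states for Klf4 and Sox2, and for Oct4 was higher in both mitotic lists than in the asynchronous one. The H3K27ac region around it (chr8:72327759-72339545) was kept, with folds of 11.0 and 11.5 in mitosis and 32.0 and 33.5 in asynchronous cells.

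The other element of 3 factors at Klf2 lay upstream at −2.77 kb (chr8:72316048-72316527). Klf4 folds were 4.65 and 4.31 in mitotic 1 and 3 (percentiles 42.7 and 33.1), and 8.66 and 7.25 in asynchronous 1 and 2 (92.2 and 96.7). Sox2 folds were 10.6 and 9.60 in mitosis (91.2 and 93.4) and 7.86 in asynchronous cells (79.6). Oct4 had folds of 6.44 and 6.20 in mitosis and no peak in the single asynchronous list. Neither mitotic 2 nor asynchronous 3 listed a Klf4 peak there, so within the shared project the peak was in the mitotic library and not in the asynchronous one. Where listed, Klf4 ranked lower in mitosis and Sox2 higher, which was not tested. Oct4 had a peak at −7.78 kb in mitotic 2 (6.39) and in asynchronous cells (4.57). The 5 remaining Klf2 elements were Klf4 peaks of 1 asynchronous library each, with folds between 3.10 and 5.07.

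**Figure D4:**
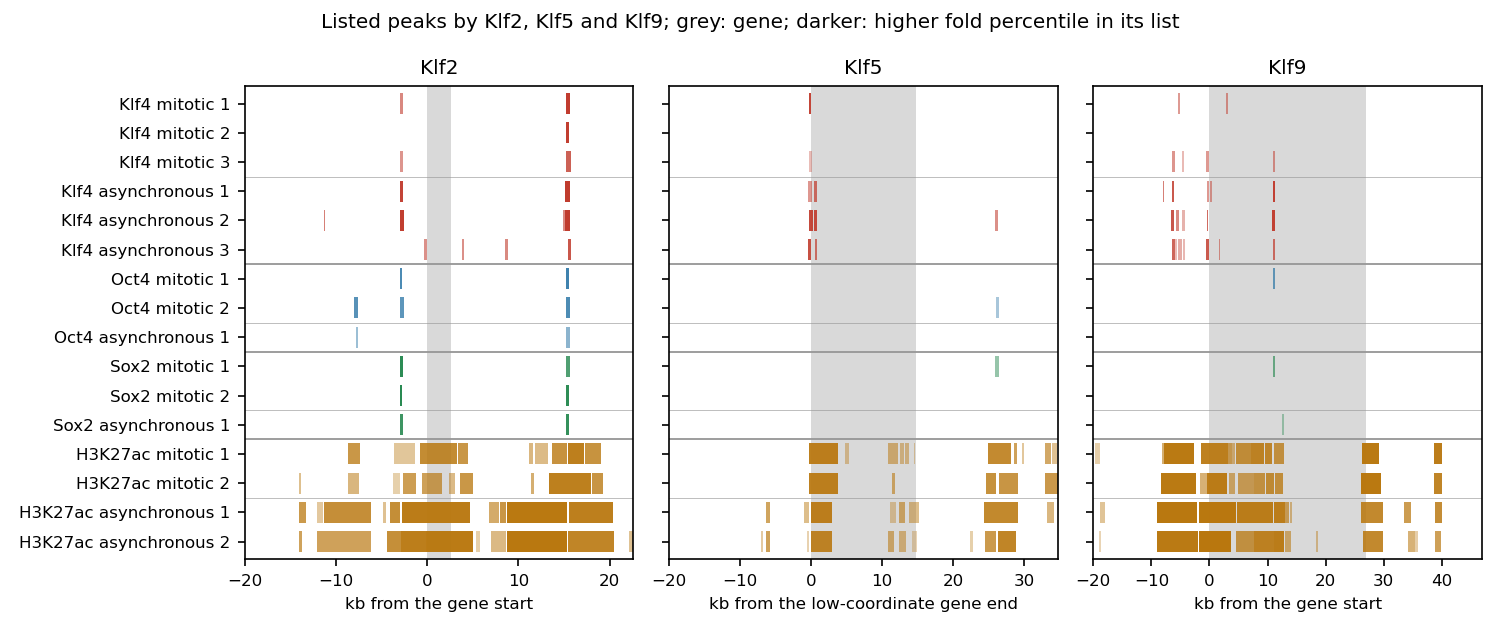
Listed peaks by Klf2, Klf5 and Klf9 in the 16 libraries (rows, mitotic above asynchronous for each antibody) by distance in kb from the gene start, or for Klf5 from its low-coordinate end. Grey marks the gene and darker bars a higher fold percentile in the list; narrow peaks are widened to be visible. Klf2 has columns of all 3 factors at −2.8 and +15.4 kb, and Klf9 a row of Klf4 peaks before its start that are mostly asynchronous.

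Klf4, a target of LIF and a factor of the original reprogramming mix, had 3 elements of all 3 factors in a distal cluster, 54.9 to 68.0 kb past the gene start, beyond the end of the gene. At +54.9 kb (chr4:55477239-55477860), found in 11 of 12 factor libraries, Klf4 folds were 8.09 and 5.46 in mitotic 2 and 3 (percentiles 98.6 and 66.8), with no peak in mitotic 1. In asynchronous cells they were 8.54, 6.91 and 15.7 (92.1, 95.9 and 97.3). Oct4 folds there were 6.66 and 6.81 in mitosis and 8.14 in asynchronous cells, and Sox2 folds 6.51 and 6.82 in mitosis and 6.38 in asynchronous cells. All 3 factors were kept at this element.

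At +56.8 kb (chr4:55475313-55475959) Sox2 was the strongest factor by rank, with folds of 12.8 and 7.78 in mitosis and 11.9 in asynchronous cells (percentiles 95.5, 84.9 and 95.6). Klf4 folds were 4.70 and 4.57 in mitotic 2 and 3 (17.6 and 44.0), and 5.50 and 6.38 in asynchronous 1 and 2 (64.8 and 94.2). Oct4 had folds of 6.78 and 7.24 in mitosis and no asynchronous peak, as at the upstream Klf2 element. At +68.0 kb (chr4:55464159-55464734) Oct4 and Sox2 were kept, with Oct4 folds of 5.08 and 6.72 in mitosis and 6.33 in asynchronous cells, and Sox2 folds of 7.57 and 5.94 in mitosis and 7.77 in asynchronous cells. Klf4 itself had a single peak there, of fold 2.69 in asynchronous 2. The lost regions of the cluster were weak: Klf4 at +52.0 kb, with 2.46 and 4.98 in asynchronous 2 and 3, and Oct4 at +50.1 kb, with 4.70 in asynchronous cells.

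Nearer the gene, factor peaks by Klf4 were of the Klf4 antibody alone. The element at +17.5 kb (chr4:55514763-55515229) was kept, with folds of 6.49 and 3.98 in mitotic 1 and 3 and of 7.38, 4.39 and 5.39 in asynchronous cells. The promoter element (chr4:55532156-55533102) had folds of 6.55, 4.19 and 7.21 in asynchronous cells, at percentiles 78.5, 75.4 and 73.2. In mitosis it had a peak of 82 bp in mitotic 2 alone, with a fold of 4.52 (percentile 10.4), outside the printed bases. Inside the gene lay the wide peak of mitotic 1 given above and a peak of asynchronous 3 at +0.97 kb (4.13).

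**Figure D5:**
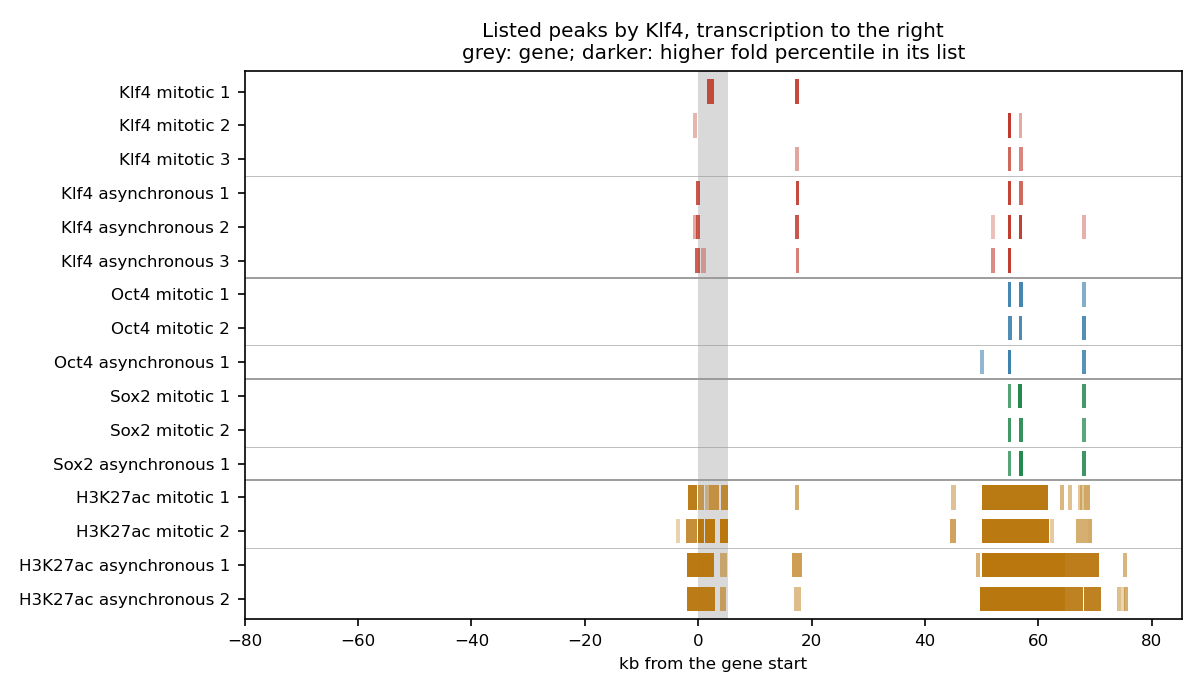
Listed peaks by Klf4 in the 16 libraries (rows, mitotic above asynchronous for each antibody) by distance in kb from the gene start, with transcription to the right. Grey marks the gene, darker bars have a higher fold percentile in their list, and narrow peaks are widened to be visible. Oct4 and Sox2 peaks stand past +50 kb, in and just beyond the broad H3K27ac domain, and promoter Klf4 peaks are mostly asynchronous.

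H3K27ac marked the distal cluster as a domain of 15597 bp (chr4:55467799-55483395). Its highest folds were 16.6 and 20.2 in mitosis (percentiles 96.9 and 98.1) and 44.5 and 36.6 in asynchronous cells (99.8 and 99.5), and its peaks covered 12069 and 12323 bp in mitosis against 15388 and 14895 bp in asynchronous cells. Beside it, under the +68.0 kb element, folds were 4.65 and 4.61 in mitosis and 20.2 and 14.6 in asynchronous cells. Their percentiles were 48.0 and 41.1 in mitosis and 93.5 and 88.3 in asynchronous cells. The Oct4 and Sox2 peaks kept there were thus in a region whose H3K27ac stood lower in the mitotic lists. A region at +44.9 kb (chr4:55486975-55488132) was mitotic-only, with folds of 3.78 and 5.19. Just before the gene start, H3K27ac folds were 12.3 in mitotic 1 (chr4:55532708-55534354) and 7.03 in mitotic 2 (chr4:55532714-55534597), at percentiles 92.9 and 74.1. The asynchronous peaks that cover these bases run on into the gene, with folds of 29.3 and 21.8. The 91.4 of mitotic 2 lay inside the gene and apart from the promoter peak. The promoter region was kept with both mitotic libraries. Without mitotic 2, where 1 mitotic library sufficed, it was kept through the peak of mitotic 1.

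Klf5, a factor of the inner cell mass and naive stem cells, had 3 factor elements. The Klf4 antibody peak at its low-coordinate end (chr14:99298259-99299013) was kept, with folds of 6.92 and 3.46 in mitotic 1 and 3 and of 4.58, 5.20 and 8.83 in asynchronous cells. These stood at percentiles 91.3 and 5.47 in mitosis and 31.5, 87.9 and 83.8 in asynchronous cells. A second region 0.66 kb further (chr14:99299131-99299562) was lost, with folds of 5.30, 4.93 and 5.74 in asynchronous cells (percentiles 58.7, 85.5 and 54.9). The asynchronous ranks of both neighbouring peaks overlapped, and mitotic lists held the first of them. The element at +26.2 kb (chr14:99324605-99325157) joined single peaks of Sox2 mitotic 1 (4.59), Oct4 mitotic 2 (4.51) and Klf4 asynchronous 2 (3.02). The H3K27ac region at the low-coordinate end was kept, with folds of 10.8 and 11.0 in mitosis and 17.1 and 12.7 in asynchronous cells. These stood at percentiles 90.2 and 89.3 in mitosis and 90.7 and 84.7 in asynchronous cells, so that the states overlapped in rank.

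Klf9 had 5 asynchronous Klf4 regions, and all 5 were intermediate, listed in 1 mitotic library, a class that made up 29.1% of such regions genome-wide. The strongest, 11.1 kb inside the gene (chr19:23152064-23152584), had a fold of 4.27 in mitotic 3 (percentile 31.0), against 9.19, 6.16 and 5.94 in asynchronous cells (93.6, 93.5 and 58.2). Oct4 mitotic 1 (5.54) and Sox2 mitotic 1 (5.28) had peaks in it, and neither asynchronous list did. The promoter element at −0.35 kb (chr19:23140622-23141134) had a fold of 4.26 in mitotic 3, against 4.57, 3.64 and 7.70 in asynchronous cells. The other three lay at −4.50, −5.34 and −6.31 kb, inside the lncRNA gene 2410080I02Rik, and their mitotic folds were 3.49 and 4.33 in mitotic 3 and 4.33 in mitotic 1. In all, 4 of the 5 rested on mitotic 3, the longest of the mitotic Klf4 lists, and the mitotic percentiles were between 6.19 and 33.4. A Sox2 peak at +12.6 kb (4.68 in asynchronous cells) was lost. The 4 remaining Klf9 elements were Klf4 peaks of 1 library each, at +2.99 kb in mitotic 1 (4.33) and at −7.94, +0.27 and +1.71 kb in single asynchronous libraries (4.26 to 4.92).

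The 5 Klf9 regions and the kept regions of the other genes can be set side by side. In mitotic 3 the kept Klf2 element at +15.4 kb stood at percentile 71.6 and the Klf4 element at +54.9 kb at 66.8, above every Klf9 region. The kept Klf5 region stood at 5.47 and the +17.5 kb Klf4 region at 20.8 in that list, among or below the Klf9 values. Kept and intermediate regions therefore overlapped in mitotic rank.

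H3K27ac peaks covered 24.1 and 24.0 kb of the 66.9 kb Klf9 window in mitosis, and 29.7 and 28.5 kb in asynchronous cells. The promoter region (chr19:23139339-23145736) had folds of 10.4 and 13.8 in mitosis (percentiles 89.3 and 94.1), against 36.6 and 45.4 in asynchronous cells (99.2 and 99.9). At the far end of the gene (chr19:23167233-23171126) folds were 17.2 and 20.5 in mitosis (97.2 and 98.2) and 11.4 and 11.1 in asynchronous cells (80.9 and 80.8). At +39.4 kb (chr19:23179832-23181321) they were 12.8 and 9.51 in mitosis and 10.0 and 6.62 in asynchronous cells (93.5 and 85.6 in mitosis, 76.3 and 57.1 in asynchronous cells). The promoter thus stood lower, and both named 3′ regions higher, in the mitotic lists, with no overlap of percentiles between states in either direction. A 3′ region between those (chr19:23174703-23176587, at +34.4 kb) was lost, with folds of 7.06 and 5.12 in asynchronous cells. The kept region at −5.53 kb overlapped between states (percentiles 97.0 and 97.0 in mitosis, 98.9 and 96.4 in asynchronous cells). At +8.75 kb a kept region stood lower in mitosis (85.2 and 73.9 against 92.4 and 92.9). The regions at the far end of the gene and at +39.4 kb held no factor peak.

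Over the 4 windows H3K27ac peaks numbered 45 and 35 in mitosis and 35 and 42 in asynchronous cells, a difference of 1.5 (exact permutation p = 1). They covered 74.3 and 72.3 kb in mitosis and 101 and 99.0 kb in asynchronous cells, a difference of −26.8 kb with no overlap between states (exact permutation p = 0.33, the smallest that 2 against 2 libraries allow). Without mitotic 2 the difference was −25.8 kb over the 4 windows, −13.5 kb at Klf2, −8.16 kb at Klf4, −5.04 kb at Klf9 and 0.86 kb at Klf5. The lists as wholes covered 39504 and 37657 kb in mitosis and 54055 and 50312 kb in asynchronous cells, and were thus shorter in mitosis too. The difference in the windows was not scaled to list coverage, so it does not show a change particular to these genes. By gene, coverage at Klf2 was 15.7 and 14.2 kb in mitosis against 28.6 and 29.7 kb in asynchronous cells. At Klf4 it was 21.5 and 22.6 kb in mitosis against 29.8 and 29.6 kb in asynchronous cells, and at Klf9 24.1 and 24.0 kb against 29.7 and 28.5 kb. At Klf5 the states overlapped, with 13.0 and 11.5 kb in mitosis and 13.1 and 11.2 kb in asynchronous cells. These Klf5 values depend on the window edge, which cuts a kept region (chr14:99331558-99345107). As a whole it covered 9473 and 10317 bp in mitosis and 12981 and 11335 bp in asynchronous cells. Its peaks with midpoints inside the window had 891 and 618 bp in mitotic 1, 2686 bp in mitotic 2 and 1069 bp in asynchronous 1. No such peak was listed in asynchronous 2. Both single-library Klf4 elements without mitotic H3K27ac were in the Klf2 window, at −11.2 and +8.74 kb. The Klf4 element at +17.5 kb lay under a peak of H3K27ac mitotic 1 (4.38) and under none of mitotic 2.

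The edges of the windows decide some counts. The outermost factor peak inside the Klf4 window lay 62.8 kb from the gene, and the first outside it 166 kb away. For Klf2 these distances were 13.0 and 26.6 kb, and for Klf5 11.6 and 26.4 kb. For Klf9 they were 7.94 and 45.9 kb. The first Klf9 element outside (chr19:23094781-23095718, at −46.0 kb) was listed in 10 of 12 factor libraries. Sox2 folds there were 29.5 and 22.4 in mitosis and 20.7 in asynchronous cells, at percentiles 99.978, 99.974 and 99.8. Oct4 folds were 5.69 and 6.27 in mitosis and 11.5 in asynchronous cells, and Klf4 folds 5.19 and 7.28 in mitotic 1 and 3 and 7.33 and 6.11 in asynchronous 1 and 2. With 80 kb for every gene, 11 of 24 Klf4 regions were kept, against 26.9% genome-wide.

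Among the rest of the Klf and Sp family, 22 genes with 20 kb on each side, 17 had an asynchronous Klf4 region (background 50.6% of protein-coding genes), 12 had a kept one (21.9%) and 10 a lost one (29.5%). At that distance 3 of the 4 genes Klf2, Klf4, Klf5 and Klf9 had a kept one. Kept Oct4 regions were near 2 of the 22 and 1 of the 4 (background 3.32%), and kept Sox2 regions near 1 of the 22 and 1 of the 4 (background 4.43%). Kept H3K27ac regions were near 17 of the 22 and all 4 of the 4 (background 56.0%). By the asynchronous percentile of the strongest kept factor region, the order was Klf3 (98.6), Klf13 (98.5), Sp2 (97.3), Klf12 (93.7), Sp3 (87.0), Klf16 (85.3), Klf8 (80.3), Klf10 (78.9), Sp4 (71.2) and Klf11 (66.5). On that scale Klf2 had 94.5, Klf4 71.2 and Klf5 67.7, so these 3 lay within the range of their relatives, and Klf9 had no kept factor region to rank. The Klf4 value is of its +17.5 kb region, as 20 kb leaves out the kept +54.9 kb one (asynchronous Klf4 percentiles 92.1, 95.9 and 97.3). The Klf2 value is of its −2.77 kb region, averaged over asynchronous 1 and 2, the libraries that listed it. Klf13, known for its role in T cells, was the one relative with kept regions of Klf4, Oct4 and Sox2, as Klf2 was among the 4 at this distance. The Klf8 region was an Oct4 one, and the others were Klf4 regions.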

How the data were processed

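Peaks of each library had been called by the authors with MACS2 2.1.1 on mm10 after cutadapt 1.8.1 and Bowtie2 2.2.5, with deepTools 2.3.6 also named, per the submitters' processing notes. The deposited lists gave each peak a fold (a ratio to local background) and p and q as −log10 values, with a −log10 p of at least 5. Inputs (7 of 24 samples) had no list, and 1 list from a mix with neural progenitors was not used. Lists were read with Python 3.11.15, pandas 2.3.3 and numpy 2.4.6 and drawn with matplotlib 3.10.9. Genes came from RefSeq GRCm38.p6; genome and protein sequences were not used here. Distances run along transcription, except at Klf5, whose strand was not given. Numbers of peaks were compared over libraries by exact two-sided permutation tests. The merging was tested on simulated peaks. Replicate numbers are those of the titles, or of accession order for Klf4. Every element was counted and those with an asynchronous region named, and up to 10 relatives were named by their strongest kept region. The genes, windows and lists were chosen with earlier results of these data known. Alternatives were a −log10 q of 5, lists of equal length, other windows and overlaps, and leaving out each library. Where that left 1 library of a state, 1 library sufficed in place of 2.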

Additional observations from a re-analysis of the deposited data

How the results depend on the processing

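The difference in Klf4 peak number (−9.67) kept its sign in all alternatives but that per 10000 listed peaks, where it was 0.80. With lists of equal length it shrank to −2.33 (4.33 in mitosis, 6.67 in asynchronous cells; exact permutation p = 0.4), and leaving out single libraries gave −11.5 to −8.17. The difference in H3K27ac peak number (1.5) had no stable sign. It was −0.5 at a −log10 q of at least 5, −8 with 80 kb for every gene, and −3.5 to 6.5 without single libraries. With the replicate number as a block (replicate block), it is 1.5 by construction, so this setting cannot test its stability. Kept Klf4 regions (6 of 14) became 2 of 11 at a −log10 q of at least 5 (genome-wide 9.83%) and 3 of 7 with lists of equal length (47.7%). They became 12 of 14 when any mitotic library sufficed (56.0%) and 11 of 24 with 80 kb for every gene (26.9%). Without single libraries they were 1 to 6, with genome-wide shares of 13.0% to 43.3%. Kept Oct4 regions (3 of 5) became 1 of 2 with lists of equal length (genome-wide 35.0%) and 1 of 2 with 20 kb for every gene (24.6%). Kept Sox2 regions (5 of 6) became 3 of 4 at a −log10 q of at least 5 (genome-wide 32.0%). With 20 kb, which leaves out the distal Klf4 cluster, they became 2 of 3 (40.9%). Kept H3K27ac regions (16) stayed between 14 and 22 in all alternatives run, with genome-wide shares of 35.8% to 60.6%. Leaving out the only asynchronous Oct4 or Sox2 library gave no value. Other causes were not tested. With unknown read depth, a missing peak does not show that binding is absent.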
